A study of Homo sapiens with 12 samples.

Results

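Catalase, the superoxide dismutases and the NADPH oxidase subunits of HLE-B3 cells are described here through 7 gene symbols, CAT, SOD1, SOD2, SOD3, CCS, NOX4 and CYBA. They were taken by symbol from the deposited count and FPKM tables, where they matched 8 records of the 58735 genes, since SOD2 has 2 records. HLE-B3 is an immortalized cell line from human lens epithelium. RNA of WT cells and of ATG7 KO cells, in which the autophagy gene ATG7 was targeted by CRISPR/Cas9, was sequenced without treatment at 0 h and after 12 h with 200 μM H2O2, in 3 biological replicates for each of the 4 groups. All cells were grown in the same medium with serum, and the ATG7 KO cells came from single clones picked after puromycin selection, without a label that says which clone or clones were sequenced. A clone and the knockout cannot be told apart in these groups, and the same holds for H2O2 and the 12 h that passed in culture.

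Superoxide dismutases turn superoxide into H2O2 and oxygen. SOD1 does so with copper and zinc in the cytosol, SOD2 with manganese in mitochondria, and SOD3 with copper and zinc outside cells, while CCS is the chaperone that hands copper to SOD1. Catalase, encoded by CAT, breaks down H2O2 in peroxisomes. NOX4 is an NADPH oxidase that makes mainly H2O2, and CYBA encodes p22phox, the membrane partner that NOX4 and several related oxidases need. In the lens, catalase and the superoxide dismutases form part of the defence of the epithelium against oxidants, whose damage is linked to cataract.

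The libraries held between 15602183 and 17659496 reads on genes, and no pair of libraries held identical values. ATG7 itself had 346 to 433 reads in untreated WT cells and 539 to 561 in untreated ATG7 KO cells, and a count over the whole gene does not check a small edit. Of the 13 lens epithelium markers, VIM, CDH2, GJA1, SIX3, PAX6 and CRYGS had at least 24 reads in every library of the 4 groups. PAX6 had 180 to 500 reads. CRYAB had 7 to 11 reads in untreated WT and 0 to 2 in untreated ATG7 KO libraries. After H2O2 it had 67 to 102 reads in WT and 45 to 50 in ATG7 KO libraries. PITX3 and CRYBB2 were without reads in some libraries, and FOXE3, MAF, PROX1 and CRYAA had means under 0.1 FPKM in each group. The summed level of 8 leukocyte markers lay between 1.95 and 3.23 FPKM, with PTPRC, CD68 and CD3E under 0.1 FPKM in all groups. That of 7 fibroblast markers was far higher and differed between groups, at 623 to 655 FPKM in untreated and 270.0 to 287 in treated WT cells, and at 360.4 to 512 in untreated and 247 to 257 in treated ATG7 KO cells. Most of it was COL1A1, a collagen chain, with a mean of 626 FPKM in untreated WT cells, while COL3A1 and DCN stayed under 0.1 FPKM in all groups, and LUM, a matrix proteoglycan, had a mean of 0.17 FPKM in untreated WT and 9.52 in untreated ATG7 KO cells. The 4 simple epithelium markers summed to 85.9 to 171 FPKM, with EPCAM and CDH1 under 0.1 FPKM in all groups. The group means of KRT8 ran from 65.4 to 89.5 FPKM and those of KRT18 from 22.4 to 47.6. The part of these markers in the results was not tested. Untreated ATG7 KO replicate 1 stood apart: its mean Pearson correlation with the other libraries of its group was 0.974, against 0.983 for the other two. In this library, genes no longer than 2533 bases lay at a median of 0.32 on the log2 scale above the mean of the other two libraries, and genes longer than 6945 bases lay at −0.33. Among the members, its log2 CPM was above the mean of replicates 2 and 3 by 0.90 for SOD1, 0.87 for CYBA, 0.81 for CCS, 0.73 for NOX4, 0.46 for SOD2 and 0.01 for CAT. The log2 fold changes of the members that use the untreated ATG7 KO group, their medians and the counts of genes called are therefore given with and without this library. Leaving out each library was planned, but this one was singled out after its values were seen. Without it 2 untreated ATG7 KO libraries remain, so even very small adjusted p values of those fits rest on few libraries.

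SOD1 and SOD2 were the most abundant members, and which of them came first depended on the scale. The mean SOD1 level was 83.6 ± 3.08 FPKM in untreated WT cells (SD, n = 3), against 22.3 ± 1.89 FPKM for SOD2 (SD, n = 3). By reads the order was the opposite, as SOD2 took 1.89 to 2.39 times the reads of SOD1 in these libraries. The gene length used for SOD2 was 16493 bases, the sum of all its annotated exons, and that for SOD1 was 2019 bases, so the FPKM of SOD2 rests on a length far above that of a usual coding transcript. CYBA had a mean of 19.3 ± 0.876 FPKM in untreated WT cells (SD, n = 3), CAT 8.06 ± 0.650 FPKM (SD, n = 3) and CCS 6.08 ± 0.174 FPKM (SD, n = 3). NOX4 was low, at 0.357 ± 0.0667 FPKM (SD, n = 3), which came from 32 to 48 reads per library. SOD3, the extracellular enzyme, had 0 to 2 reads in each of the 12 libraries and was at 0 in all 3 untreated ATG7 KO libraries, where a count of 0 allows up to 3 reads per library. Bulk libraries cannot tell fewer cells with a transcript from less of it in each cell.

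The records lie on GRCh38, and their coordinates equal those of GENCODE release 29. CAT (ENSG00000121691) lies on chromosome 11 from 34438925 to 34472062 on the plus strand, and CCS (ENSG00000173992) lies on the same chromosome and strand from 66592821 to 66606019. SOD1 (ENSG00000142168) lies on chromosome 21 from 31659622 to 31668931 on the plus strand. The main SOD2 record (ENSG00000112096) runs on the minus strand of chromosome 6 from 159669057 to 159745186, and SOD3 (ENSG00000109610) on the plus strand of chromosome 4 from 24789912 to 24800842. NOX4 (ENSG00000086991) runs on the minus strand of chromosome 11 from 89324356 to 89498187, and CYBA (ENSG00000051523) on the minus strand of chromosome 16 from 88643283 to 88651152. The second SOD2 record (ENSG00000285441) had 0 to 3 reads and shared 845 exon bases with the first, so reads in the shared part could not be assigned to either record from these files. WTAP, on the opposite strand, shared 298 exon bases with SOD2, and CCDC87 shared 263 exon bases with CCS. The pseudogenes SOD1P1, SOD1P2, SOD1P3 and SOD2P1 had 0 or 1 read in each library. CAT, SOD1, SOD3, NOX4 and CYBA shared no exon base with another gene.

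The bases before the transcription start are printed for CAT, SOD2 and CYBA, which were the members with the most called changes that have an entry in the RefSeq promoter table (GRCh38.p14), and for CCS, the one member whose window held the core of an antioxidant response element. The table matched 6 of the 7 symbols, all but SOD1. SOD2 had 4 starts there, and the one shown was the start within 50 bases of which 6 of 15 annotated SOD2 transcripts began. Capitals mark matches on either strand to the letters TGACNNNGC, the core of the element bound by NRF2, or to an NF-κB type motif, which is a run of G, any bases and a run of C. The CAT window was chr11:34438684-34438933 on the plus strand, that of CCS chr11:66592935-66593184 on the plus strand, that of SOD2 chr6:159693242-159693491 on the minus strand and that of CYBA chr16:88651054-88651303 on the minus strand, each 250 bases long and written 5′ to 3′ along the gene.
CAT: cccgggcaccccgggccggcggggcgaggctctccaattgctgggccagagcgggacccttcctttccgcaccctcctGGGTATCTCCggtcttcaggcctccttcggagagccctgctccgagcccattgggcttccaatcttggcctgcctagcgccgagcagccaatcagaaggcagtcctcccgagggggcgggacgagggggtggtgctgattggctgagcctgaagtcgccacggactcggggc
CCS: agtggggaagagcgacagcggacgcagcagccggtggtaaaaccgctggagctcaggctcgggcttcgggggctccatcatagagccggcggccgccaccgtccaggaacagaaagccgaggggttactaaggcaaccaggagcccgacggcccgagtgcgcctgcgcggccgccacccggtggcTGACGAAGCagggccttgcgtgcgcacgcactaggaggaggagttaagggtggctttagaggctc
SOD2: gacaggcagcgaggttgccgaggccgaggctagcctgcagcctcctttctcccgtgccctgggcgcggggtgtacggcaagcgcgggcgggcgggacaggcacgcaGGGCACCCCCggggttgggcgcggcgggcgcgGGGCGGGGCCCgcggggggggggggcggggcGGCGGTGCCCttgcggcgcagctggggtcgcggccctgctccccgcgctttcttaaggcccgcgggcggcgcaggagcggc
CYBA: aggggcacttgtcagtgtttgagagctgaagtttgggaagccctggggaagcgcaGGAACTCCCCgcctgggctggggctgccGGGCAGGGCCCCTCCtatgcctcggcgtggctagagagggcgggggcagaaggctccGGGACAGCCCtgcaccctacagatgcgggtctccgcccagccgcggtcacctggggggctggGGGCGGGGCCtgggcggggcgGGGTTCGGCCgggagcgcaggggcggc

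The antioxidant response element core was found in the CCS window only among the 11 windows of these genes, at 65 to 57 bases before the start. Of 35116 promoter windows of the same length in the table, 10.9% held it. The NF-κB type letters were found in the CAT window once, in the SOD2 window shown 4 times with 2 overlapping matches, and in the CYBA window 7 times with 3 overlapping matches. These letters are frequent, as 54.4% of all windows held them. The AP-1 type letters TGANTCA, held by 6.57% of all windows, matched in none of the 11 windows. NOX4 had 3 starts in the table, of which 1 held an NF-κB type match, and the SOD3 window held no match. A match of letters is a description of the sequence and was not tested for binding.

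**Figure D1:**
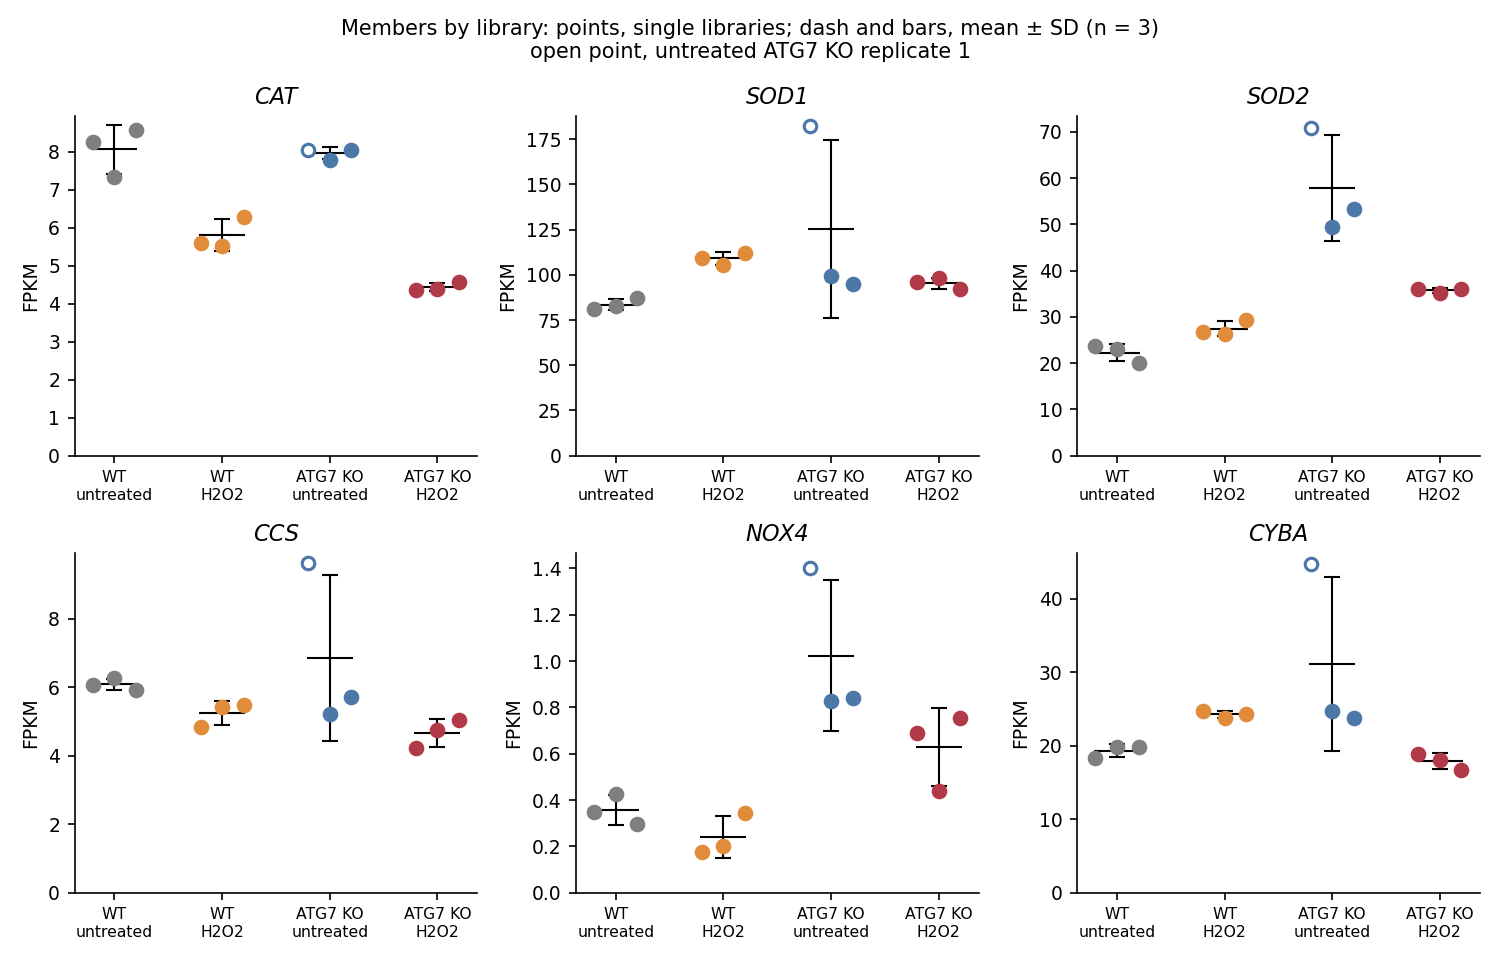
FPKM of the 6 members that passed the count filter (y axis, 1 panel per gene, linear from 0) in the 4 groups (x axis), with points for single libraries and a dash with bars for the mean ± SD of 3 replicates. The open point is untreated ATG7 KO replicate 1, which was the highest library of its group for SOD1, SOD2, CCS, NOX4 and CYBA, with 182 FPKM for SOD1 against 99.1 and 95.1 in the other two.

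After H2O2, WT cells had less of the catalase transcript and more of the transcripts of both intracellular superoxide dismutases and of p22phox. CAT fell from 8.06 to 5.80 FPKM on average, while SOD1 rose from 83.6 to 109, SOD2 from 22.3 to 27.4 and CYBA from 19.3 to 24.3. Of the 6 members tested, 4 were called, 3 higher and 1 lower, at an adjusted p under 0.01 (quasi-likelihood test of edgeR). Among the 15913 genes tested, 61% passed, 30.9% higher and 30.1% lower, so most genes of these cells passed the same test. None of the 4 changes reached a log2 fold change of 1, a size that 12.5% of all genes exceeded at a mean FPKM above 1. The median log2 fold change of the 6 members was 0.04, and that of all genes was −0.0053.

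CAT stood at 8.26, 7.33 and 8.58 FPKM in untreated WT replicates 1, 2 and 3 and at 5.58, 5.52 and 6.28 FPKM after H2O2. All 3 treated libraries were below all 3 untreated libraries. The log2 fold change was −0.48 with an SE of 0.084 and an adjusted p of 2.46e-06.

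SOD1 was at 80.9, 82.8 and 87.0 FPKM in untreated WT cells and at 109, 106 and 112 FPKM after H2O2. The groups did not overlap, and the log2 fold change was 0.38 with an SE of 0.045 and an adjusted p of 4.20e-10. SOD2 was at 23.7, 23.0 and 20.1 FPKM and then at 26.7, 26.3 and 29.3 FPKM. Every treated library was above every untreated one here too, with a log2 fold change of 0.30, an SE of 0.054 and an adjusted p of 4.15e-05. The copper chaperone CCS did not follow SOD1. Its levels were 6.05, 6.26 and 5.92 FPKM without treatment and 4.84, 5.41 and 5.48 FPKM with it, lower in each treated library, but the log2 fold change of −0.22 had an SE of 0.11 and an adjusted p of 0.0602. In each library the FPKM of SOD1 was set against that of CCS. The ratio lay between 13.2 and 14.7 in untreated WT cells and between 19.5 and 22.6 after H2O2. In ATG7 KO cells it lay between 16.7 and 19.0 without treatment and between 18.3 and 22.7 after H2O2, with overlap.

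CYBA was at 18.3, 19.8 and 19.8 FPKM in untreated WT cells and at 24.8, 23.8 and 24.3 FPKM after H2O2. The treated libraries were all higher, with a log2 fold change of 0.33, an SE of 0.055 and an adjusted p of 9.12e-07. NOX4, the oxidase that p22phox serves, had 37, 48 and 32 reads in untreated WT cells and 18, 19 and 36 reads after H2O2. Its groups overlapped in FPKM through treated replicate 3, and the log2 fold change of −0.57 had an SE of 0.29 and an adjusted p of 0.0752. It was −0.94 without treated replicate 3 (adjusted p = 0.0105) and −0.39 without treated replicate 1 (adjusted p = 0.290). With SOD1, SOD2, CCS, CAT and CYBA, 5 of the 6 members had groups that did not overlap, as did 71.4% of all genes.

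When all 12 libraries shared an estimate of the spread, the log2 fold changes of SOD1, SOD2 and CYBA in WT cells were 0.38, 0.29 and 0.33, and their calls were lost, with adjusted p values of 0.105, 0.0536 and 0.155. With untreated ATG7 KO replicate 1 left out of that shared fit, an alternative chosen after seeing the data, the 3 genes passed again at 2.02e-13, 0.000176 and 1.26e-07. A correction for gene length moved the log2 fold change of SOD2 to 0.64 and that of SOD1 to 0.21, and both stayed past the threshold. With this correction CCS passed too, at −0.36 with an adjusted p of 0.00262.

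**Figure D2:**
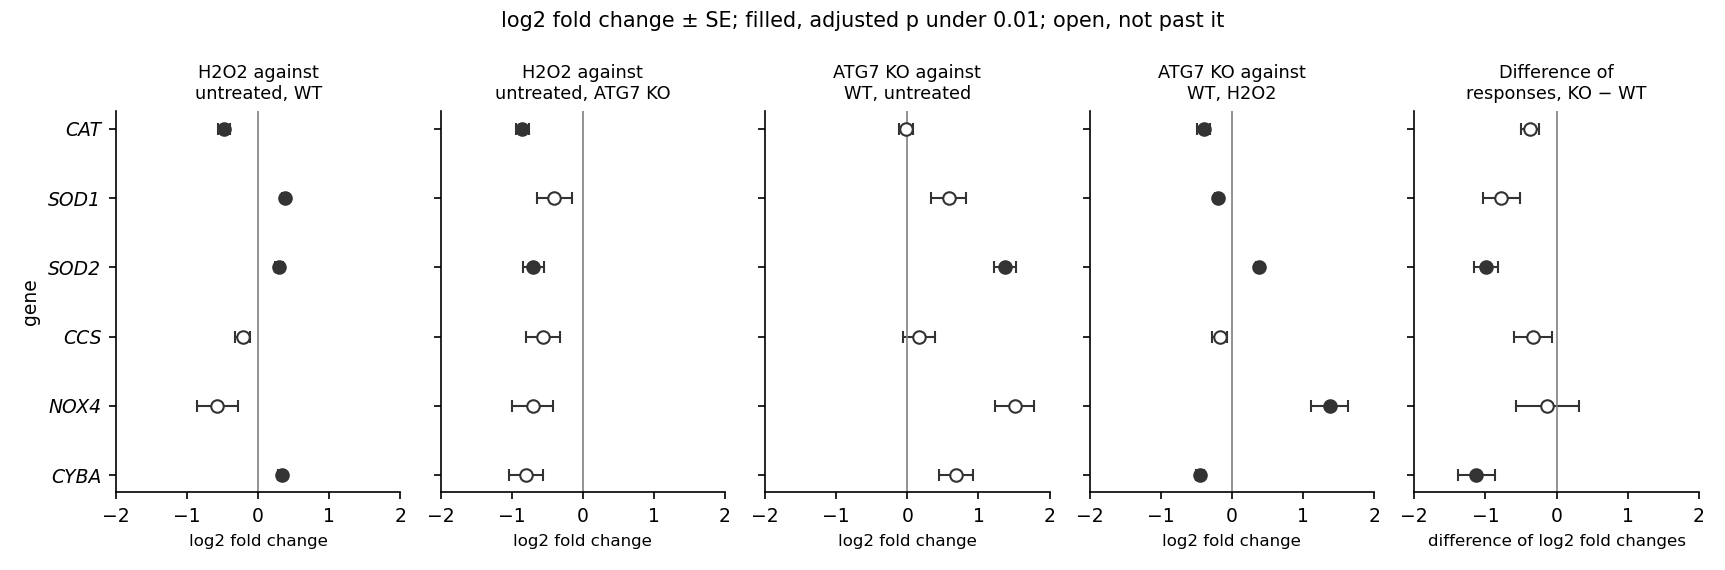
log2 fold change of the 6 members (x axis, with bars for the SE) in the 4 comparisons of groups and, at the right, the difference of the H2O2 responses of ATG7 KO and WT cells. Filled points have an adjusted p under 0.01 (quasi-likelihood test of edgeR): 4 members in WT cells, 2 in ATG7 KO cells, 1 between untreated cells, 5 between treated cells and 2 in the difference of responses.

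In ATG7 KO cells, the levels of SOD2 and CAT fell after H2O2, and the other 4 members tested did not pass. SOD2 fell from 57.8 ± 11.4 FPKM to 35.7 ± 0.537 FPKM (SD, n = 3) and CAT from 7.96 ± 0.150 FPKM to 4.43 ± 0.111 FPKM (SD, n = 3). The 2 members called were 2 of 6, while 26% of the 15475 genes tested passed, 13.6% higher and 12.4% lower. No member reached a log2 fold change of 1 here, which 11.2% of all genes exceeded at a mean above 1 FPKM. The median log2 fold change of the 6 members was −0.70, and that of all genes was −0.032. Without untreated ATG7 KO replicate 1 these medians were −0.43 and −0.0030. Then 3 members passed, CAT, SOD2 and CYBA, all lower, and 58.4% of all genes passed, 29.8% higher and 28.6% lower.

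CAT was at 8.04, 7.78 and 8.05 FPKM in the untreated ATG7 KO libraries and at 4.36, 4.37 and 4.56 FPKM after H2O2. The groups lay far apart relative to their spread, with a log2 fold change of −0.85, an SE of 0.090 and an adjusted p of 0.000443. Leaving out replicate 1 of the untreated group gave the same log2 fold change of −0.85 (adjusted p = 8.07e-18).

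SOD2 was at 70.8, 49.3 and 53.3 FPKM before and at 36.0, 35.1 and 36.0 FPKM after H2O2, so that all treated libraries were lower. The log2 fold change was −0.70 with an SE of 0.15 and an adjusted p of 0.00834. With all but untreated replicate 1, which leaves 2 untreated libraries, it was −0.53 (adjusted p = 2.12e-47). The SOD2 call ended without untreated replicate 3 (−0.75, adjusted p = 0.0189) or without treated replicate 1, 2 or 3 (−0.70, −0.68 and −0.70, with adjusted p of 0.0429, 0.0458 and 0.0428). It also ended with a gene length correction, where the log2 fold change was −0.94 with an adjusted p of 0.0256, and with the replicate block, where it was −0.68 with an adjusted p of 0.0138.

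SOD1 was at 182, 99.1 and 95.1 FPKM in untreated ATG7 KO cells and at 95.9, 98.0 and 92.2 FPKM after H2O2. Replicate 1 alone was far above the treated libraries, while the other two overlapped with them. Its log2 fold change was −0.40 with an SE of 0.24 and an adjusted p of 0.228, and without that replicate it was −0.04 with an SE of 0.038 and an adjusted p of 0.382. CCS was at 9.63, 5.22 and 5.70 FPKM and then at 4.23, 4.75 and 5.03 FPKM. Its treated libraries were below the untreated ones, and the log2 fold change of −0.55 had an SE of 0.24 and an adjusted p of 0.102, or −0.24 and 0.0627 without replicate 1.

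CYBA was at 44.7, 24.8 and 23.8 FPKM in untreated ATG7 KO cells and at 18.9, 18.0 and 16.8 FPKM after H2O2. All treated libraries were lower, and the log2 fold change of −0.80 had an SE of 0.24 and an adjusted p of 0.0337. It passed with DESeq2 (−0.79, adjusted p = 0.00647) and when all 12 libraries shared an estimate of the spread (−0.80, adjusted p = 0.00278). Without untreated replicate 1 the fall was smaller and passed the test, at −0.45 with an SE of 0.053 and an adjusted p of 3.58e-15. NOX4 had 141, 90 and 95 reads before and 72, 44 and 80 reads after H2O2. Its log2 fold change was −0.70 with an SE of 0.29 and an adjusted p of 0.0907, and −0.42 with an adjusted p of 0.0595 without replicate 1. The treated NOX4 libraries were below the untreated ones in FPKM, as were those of every member except SOD1, and 59.6% of all genes had groups that did not overlap.

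Before treatment, ATG7 KO cells had more SOD2 and NOX4 transcript than WT cells, and the catalase levels of the genotypes overlapped. SOD2 was 57.8 ± 11.4 FPKM against 22.3 ± 1.89 FPKM (SD, n = 3), and NOX4 1.02 ± 0.328 FPKM against 0.357 ± 0.0667 FPKM (SD, n = 3). SOD2 was the 1 member of 6 that passed the test, among 15357 genes of which 7.7% passed, 4.42% higher and 3.28% lower. Without untreated ATG7 KO replicate 1, 4 members passed, SOD2, NOX4, CYBA and SOD1, all higher, while 36.2% of all genes passed, 18.2% higher and 17.9% lower. The median log2 fold change of the 6 members was 0.63 with all libraries and 0.28 without that one, and that of all genes was 0.0055 and −0.0049.

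SOD2 was 2.59-fold higher in untreated ATG7 KO cells. Its log2 fold change was 1.37, with an SE of 0.16 and an adjusted p of 0.00170. It was 2.32-fold higher without ATG7 KO replicate 1, and the lowest ATG7 KO library, at 49.3 FPKM, was above the highest WT library, at 23.7 FPKM. Among all genes tested, the log2 fold change of SOD2 stood at percentile 96.8, and SOD2 was the 1 member past a log2 fold change of 1 with a mean above 1 FPKM, a rule that 3.5% of all genes met. The call was lost without WT replicate 1, 2 or 3, where the log2 fold change was 1.42, 1.40 and 1.31 with adjusted p of 0.0157, 0.0174 and 0.0168.

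NOX4 was 2.84-fold higher, with 141, 90 and 95 reads in ATG7 KO cells against 37, 48 and 32 in WT cells. The groups were far apart, but the adjusted p of 0.0101 lay just over the threshold, with a log2 fold change of 1.51 and an SE of 0.27. Without ATG7 KO replicate 1 it was 1.23 with an SE of 0.23 and an adjusted p of 1.11e-06, and DESeq2 with all libraries gave an adjusted p of 2.27e-05.

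CYBA and SOD1 were above WT in every untreated ATG7 KO library, and their size depended on replicate 1. The log2 fold change of CYBA was 0.68 with an SE of 0.24 and an adjusted p of 0.0914, and without replicate 1 it was 0.34 with an SE of 0.058 and an adjusted p of 8.47e-08. That of SOD1 was 0.58 with an SE of 0.24 and an adjusted p of 0.145, and without replicate 1 it was 0.22 with an SE of 0.046 and an adjusted p of 1.20e-05. CCS overlapped between the genotypes, with a log2 fold change of 0.17 (adjusted p = 0.638) that turned to −0.15 (adjusted p = 0.302) without replicate 1. CAT overlapped as well, with a log2 fold change of −0.02, an SE of 0.098 and an adjusted p of 0.913, and it was −0.02 without replicate 1 as well. Groups did not overlap for 4 of the 6 members and for 45.3% of all genes.

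**Figure D3:**
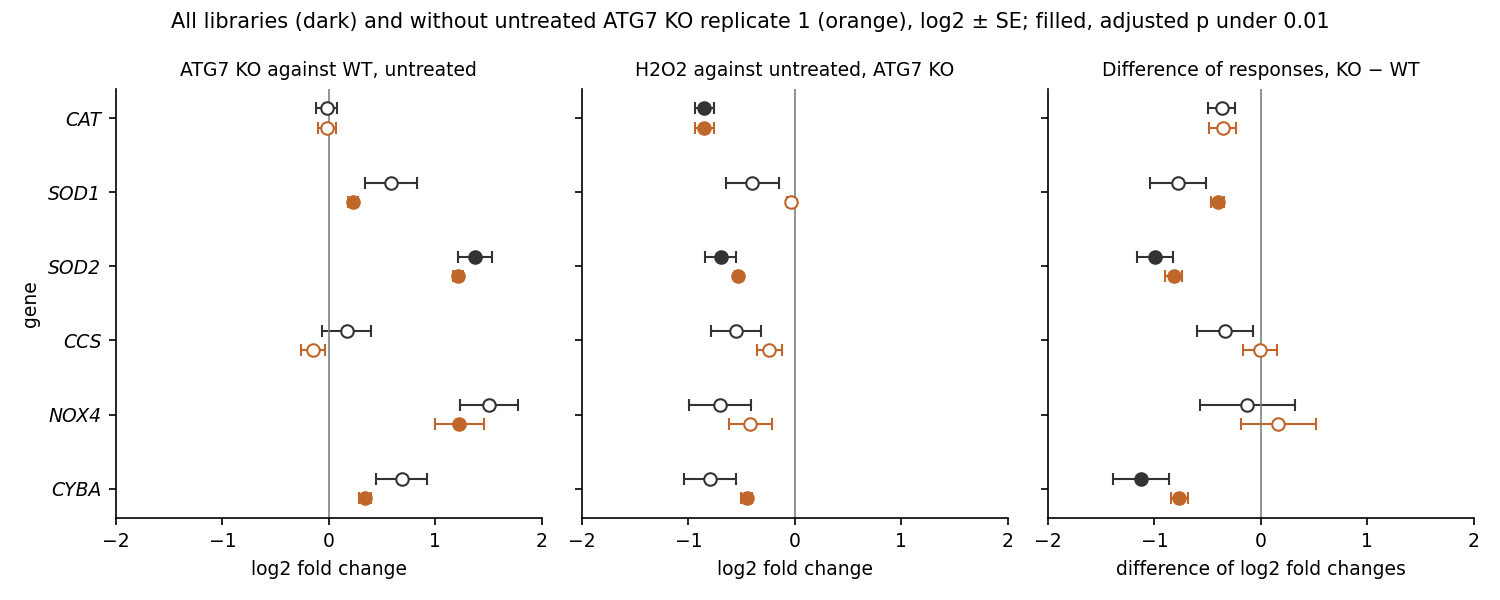
log2 fold change ± SE (x axis) of the 6 members in the 3 comparisons that use untreated ATG7 KO cells, with all libraries (dark) and without untreated ATG7 KO replicate 1 (orange); filled points have an adjusted p under 0.01 (quasi-likelihood test of edgeR). Without that library SOD1 between untreated cells moved from 0.58 to 0.22 and passed the test, and CAT stayed at −0.02.

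After 12 h with H2O2, ATG7 KO cells had more NOX4 and SOD2 transcript than WT cells and less CAT, CYBA and SOD1 transcript. NOX4 was 2.59-fold higher and SOD2 1.30-fold higher, and the fold of CAT was 0.760, of CYBA 0.733 and of SOD1 0.870. With these 5 of 6 members called, 2 higher and 3 lower, the share of all 15909 genes that passed was 55.6%, 27.7% higher and 27.9% lower. NOX4 was the single member past a log2 fold change of 1, and it stayed under the mean FPKM of 1 that the stricter rule of the study asks for, so that 0 members met that rule against 7.46% of all genes. The median log2 fold change of the members was −0.19, and that of all genes was −0.0022. This comparison did not involve the untreated ATG7 KO group.

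NOX4 was at 0.690, 0.439 and 0.756 FPKM in treated ATG7 KO cells and at 0.174, 0.202 and 0.343 FPKM in treated WT cells. All ATG7 KO libraries were higher, with a log2 fold change of 1.37, an SE of 0.26 and an adjusted p of 3.72e-05. SOD2 was at 36.0, 35.1 and 36.0 FPKM in ATG7 KO cells against 26.7, 26.3 and 29.3 FPKM in WT cells. The log2 fold change of 0.37 had an SE of 0.037 and an adjusted p of 2.20e-10, and a gene length correction reduced it to 0.11 with an adjusted p of 0.0134.

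CAT was at 4.36, 4.37 and 4.56 FPKM in treated ATG7 KO cells, below the 5.58, 5.52 and 6.28 FPKM of treated WT cells. Its log2 fold change was −0.40 with an SE of 0.091 and an adjusted p of 0.000348, and with the gene length correction it was −0.33 (adjusted p = 0.00221). CYBA, at 18.9, 18.0 and 16.8 FPKM against 24.8, 23.8 and 24.3 FPKM, had a log2 fold change of −0.45 with an SE of 0.052 and an adjusted p of 6.99e-09. SOD1, at 95.9, 98.0 and 92.2 FPKM, was below the 109, 106 and 112 FPKM of treated WT cells. Its log2 fold change of −0.20 had an SE of 0.039 and an adjusted p of 3.88e-05, and it fell to −0.03 with the gene length correction (adjusted p = 0.558). CCS overlapped, with a log2 fold change of −0.17 and an adjusted p of 0.169. The groups of the other members did not overlap, as was the case for 68% of all genes. When all 12 libraries shared an estimate of the spread, CAT and NOX4 passed and SOD2, SOD1 and CYBA did not, with adjusted p of 0.0210, 0.418 and 0.0692, and all 5 passed in that fit without untreated ATG7 KO replicate 1.

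The H2O2 responses of the genotypes differed for SOD2 and CYBA. Both rose in WT cells, while in ATG7 KO cells SOD2 fell and CYBA had a log2 fold change of −0.80 that did not pass in edgeR with all libraries of that comparison. The ATG7 KO response minus the WT response, tested as an interaction over the 12 libraries, was −0.99 on the log2 scale for SOD2 with an SE of 0.17 and an adjusted p of 0.00127. For CYBA it was −1.13 with an SE of 0.26 and an adjusted p of 0.00731. These were 2 of 6 members, both lower, where 14% of the 16856 genes tested passed, 7.02% higher and 7.01% lower. CYBA was the 1 member whose difference was also beyond 1 on the log2 scale, as it was for 5.17% of all genes at a mean above 1 FPKM.

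Without untreated ATG7 KO replicate 1, SOD1 passed too, and 34.1% of all genes did, 17.8% higher and 16.3% lower. The difference was then −0.82 with an SE of 0.081 for SOD2 (adjusted p = 1.23e-07), −0.77 with an SE of 0.079 for CYBA (adjusted p = 2.40e-14) and −0.41 with an SE of 0.061 for SOD1 (adjusted p = 2.61e-08). With all libraries, that of SOD1 was −0.78 with an SE of 0.26 and an adjusted p of 0.0403. CYBA lost its call without any single WT library or any single treated ATG7 KO library, where the difference was between −1.16 and −1.07 with adjusted p between 0.0167 and 0.0227. A gene length correction changed the difference of SOD2 to −1.59 (adjusted p = 0.00190).

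CAT fell in both genotypes, and the difference of −0.37 between its responses had an SE of 0.12 and an adjusted p of 0.0397, or −0.36 and 0.0135 without untreated ATG7 KO replicate 1. CCS had a difference of −0.33 (SE 0.26, adjusted p = 0.357), which was −0.0063 without that library. For NOX4 the difference was −0.13 with an SE of 0.44 and an adjusted p of 0.853, so that at 18 to 141 reads per library a difference of this size was not detectable. Without that library it was 0.17. The median difference of the 6 members was −0.57 and that of all genes was −0.033, and without that library they were −0.38 and −0.011.

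SOD2, which makes H2O2, was set against CAT, which breaks it down, within each library. The FPKM of SOD2 was 2.35 to 3.13 times that of CAT in untreated WT cells and 4.66 to 4.78 times after H2O2. In ATG7 KO cells this ratio was 6.34 to 8.81 without treatment and 7.90 to 8.26 after H2O2, above every WT library in both conditions. CYBA exceeded NOX4 by 46.2 to 67.0 times in untreated WT cells and by 70.8 to 142 times in treated WT cells. It did so by 28.2 to 31.9 times in untreated and by 22.2 to 41.0 times in treated ATG7 KO cells, so that no ATG7 KO library reached the lowest WT library. These ratios share the gene lengths used for FPKM, and their order between libraries does not depend on library size.

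Across the 4 groups, the order of the mean levels differed between members. SOD2 was lowest in untreated WT cells, then rose through treated WT cells and treated ATG7 KO cells to untreated ATG7 KO cells, with no overlap between neighbours. NOX4 had its lowest mean in treated WT cells, followed by untreated WT, treated ATG7 KO and untreated ATG7 KO cells, with an overlap between the WT groups. CAT was lowest in treated ATG7 KO cells, then in treated WT cells, and the untreated groups, at 7.96 and 8.06 FPKM, overlapped. SOD1 had its lowest mean in untreated WT cells and its highest in untreated ATG7 KO cells, where replicates 2 and 3 lay below all treated WT libraries. CYBA was lowest in treated ATG7 KO cells, at 16.8 to 18.9 FPKM, which overlapped with the 18.3 to 19.8 FPKM of untreated WT cells. The CCS means lay between 4.67 FPKM in treated and 6.85 FPKM in untreated ATG7 KO cells, and its untreated and treated WT groups were at 6.08 and 5.24 FPKM. Without replicate 1 the untreated ATG7 KO mean of CCS was 5.46 FPKM, below that of untreated WT cells.

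The other genes of the NADPH oxidase family and its regulators, 19 symbols, were mostly low. In WT cells 11 of them were tested, of which 2 rose and 3 fell after H2O2, where 61% of all genes passed, with a median log2 fold change of −0.06. CYBB, the catalytic subunit of the phagocyte oxidase and another partner of p22phox, had 18 to 31 reads in untreated WT cells and 1 to 6 after H2O2 (adjusted p = 6.64e-07). DUOX1, a dual oxidase, had 8 to 10 reads and then 19 to 30 (adjusted p = 0.000384). RAC1, the GTPase that activates several oxidases, rose by 0.22 on the log2 scale (adjusted p = 1.18e-05), and SH3PXD2B, which encodes an organizer protein, had a log2 fold change of −0.86 (adjusted p = 5.63e-17). The calls of DUOX1 and RAC1 ended when all 12 libraries shared an estimate of the spread, at adjusted p of 0.0189 and 0.142, and that of DUOX1 also with limma on log2 of FPKM plus 1 (adjusted p = 0.0173).

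Between untreated genotypes 0 of 11 tested genes of this list passed in edgeR, where 7.7% of all genes passed. Without untreated ATG7 KO replicate 1, 4 of 11 were higher in ATG7 KO cells and 0 lower. Of all genes, 18.2% were then higher and 17.9% lower. Between treated genotypes 5 of 10 were higher and 2 lower in ATG7 KO cells, beside 27.7% higher and 27.9% lower of all genes. SH3PXD2A, another organizer, and RAC2, a haematopoietic Rac GTPase, were the highest of these, at 1.46 (adjusted p = 2.87e-11) and 0.79 (adjusted p = 6.65e-08). NOXA1, the activator of NOX1, had 1 to 5 reads in treated ATG7 KO cells against 11 to 24 in treated WT cells (adjusted p = 0.000110).

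The genes that supply copper, 9 symbols with 10 records because SCO2 has 2, gave 8 tested records. In WT cells 2 rose and 3 fell after H2O2, with a median of 0.08, while 61% of all genes passed. The copper exporters ATP7A and ATP7B fell, at −1.21 (adjusted p = 2.87e-17) and −1.61 (adjusted p = 1.74e-13), and ATOX1, the chaperone that feeds them, rose by 0.25 (adjusted p = 0.000923). STEAP3, a metalloreductase, was the other gene that fell in WT cells, at −0.79 (adjusted p = 7.24e-07, edgeR). The transporter SLC31A2 rose by 1.13 on 7 to 39 reads per library (adjusted p = 0.00523). SLC31A2 did not pass without untreated WT replicate 3 or treated WT replicate 1 (0.82 and 0.81, adjusted p = 0.0565 and 0.0984), and ATOX1 did not pass without untreated or treated WT replicate 3 (0.22 and 0.18, adjusted p = 0.0103 and 0.0141). Both calls ended when all 12 libraries shared an estimate of the spread (adjusted p = 0.0345 for SLC31A2 and 0.398 for ATOX1), and that of SLC31A2 also with DESeq2 (0.0186), the gene length correction (0.0137) and limma (0.0167 and 0.0175). In ATG7 KO cells, STEAP3 was the 1 record of 8 called, with a log2 fold change of −2.17 (adjusted p = 6.29e-05). STEAP3 was also the 1 record called between untreated genotypes, higher in ATG7 KO cells by 1.55 (adjusted p = 0.000527). Of all genes, 26% and 7.7% passed in these 2 comparisons. Without untreated ATG7 KO replicate 1 the values of STEAP3 were −2.28 (adjusted p = 3.51e-68) and 1.66 (adjusted p = 5.41e-45). Then 1 copper record rose and 2 fell in ATG7 KO cells, beside 29.8% and 28.6% of all genes. Between untreated genotypes 1 was higher and 3 lower, beside 18.2% and 17.9% of all genes.

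Between treated genotypes, ATG7 KO cells had a higher level of 1 copper record and lower levels of 3, of 8 tested. Of all genes, 27.7% were higher and 27.9% lower there. ATP7A was higher by 0.97 (adjusted p = 2.38e-11), while COX17, a copper chaperone of mitochondria, was lower at −0.69 (adjusted p = 9.76e-07) and SLC31A2 at −1.04 (adjusted p = 0.00957). SLC31A2 did not pass without treated WT replicate 1 or 2 or treated ATG7 KO replicate 2 or 3, at −1.13 to −0.72 with adjusted p of 0.0124 to 0.125, nor with DESeq2 (0.0296), no filter (0.0174), all 12 libraries (0.0586), the replicate block (0.0109), the gene length correction (0.0254) or limma (0.0208 and 0.0182). COX17 did not pass in the fit of all 12 libraries (adjusted p = 0.0379). In the difference of responses ATP7A was at 1.24 (adjusted p = 0.000542) and STEAP3 at −1.38 (adjusted p = 0.000260), and without untreated ATG7 KO replicate 1 they were at 1.09 (adjusted p = 9.49e-14) and −1.49 (adjusted p = 1.07e-12).

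For protein import into peroxisomes, the process by which catalase reaches them, and for peroxisome biogenesis, all 13 genes were tested. In WT cells 6 fell and 0 rose after H2O2, beside 30.1% lower and 30.9% higher of all genes, with a median log2 fold change of −0.21. PEX19, which brings membrane proteins to peroxisomes, fell the most, at −0.69 (adjusted p = 3.67e-11). In ATG7 KO cells PEX6, an ATPase that recycles the import receptor, was the 1 gene called, at −1.38 (adjusted p = 0.000246), beside a list median of −0.38. PEX6 was also the 1 gene called between untreated genotypes, higher in ATG7 KO cells by 0.72 (adjusted p = 0.00516), and in the difference of responses, at −1.03 (adjusted p = 0.000997). Of all genes, 26% passed in the response of ATG7 KO cells, 7.7% between untreated genotypes and 14% in the difference. Between untreated genotypes PEX6 passed without ATG7 KO replicate 1 but not without any other single library, at 0.66 to 0.76 with adjusted p of 0.0204 to 0.0387, nor with the replicate block (0.72, adjusted p = 0.0248). Without untreated ATG7 KO replicate 1, PEX6 was at −1.44 in the response of ATG7 KO cells (adjusted p = 8.49e-45), 0.78 between untreated genotypes (adjusted p = 2.25e-18) and −1.09 in the difference of responses (adjusted p = 2.00e-11). The counts of peroxisomal genes called were then 7 lower in the response, with a list median of −0.28, 2 higher between untreated genotypes, and 3 higher and 1 lower in the difference. Of all genes, 28.6% were then lower in the response, 18.2% higher between untreated genotypes, and 17.8% higher and 16.3% lower in the difference.

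Between treated genotypes, ATG7 KO cells had higher levels of 3 peroxisomal genes and lower levels of 2, of 13 tested. Of all genes, 27.7% were higher and 27.9% lower in this comparison. PEX2, a ubiquitin ligase of the importer, was higher by 0.54 (adjusted p = 0.000314). PEX6 was lower at −0.32 (adjusted p = 0.00899) and PEX14, the docking protein, at −0.27 (adjusted p = 0.00653). PEX6 did not pass without treated replicate 1 of either genotype or treated ATG7 KO replicate 2 (−0.32 to −0.21, adjusted p up to 0.106). PEX14 did not pass without any single library of this comparison except treated WT replicate 3 (−0.29 to −0.23, adjusted p up to 0.0357), and neither PEX14 nor PEX6 passed with the gene length correction (−0.16 and −0.25). Neither passed with DESeq2 (adjusted p = 0.0154 and 0.0204), no filter (0.0260 and 0.0128) or all 12 libraries (0.0478 and 0.0515), where PEX2 did not pass either (0.0148), and limma did not call PEX6 (0.0402 and 0.0387).

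**Figure D4:**
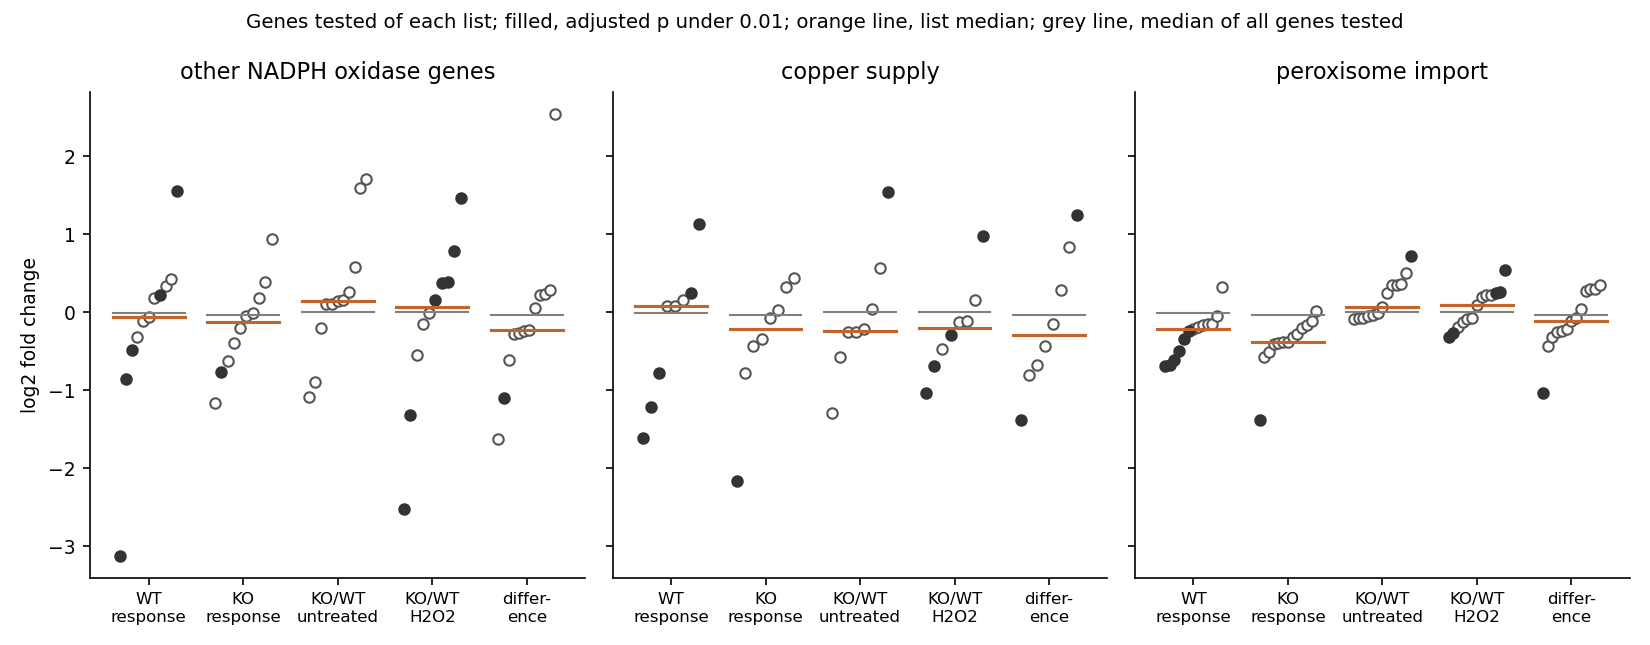
log2 fold change (y axis) of the tested genes of the 3 related lists in the 4 comparisons of groups and in the difference of responses (x axis), with each gene as a point, filled where it passed an adjusted p of 0.01. Orange lines are the list medians and grey lines the medians of all genes tested, and the peroxisomal list has its lowest median, −0.38, in the response of ATG7 KO cells.

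The genes with the most similar levels over the 12 libraries were found by the root mean square difference of log2 CPM, centred on each gene's mean. For SOD2 they were ROBO3, SLC22A4 and LRR1, at differences of 0.115, 0.131 and 0.140, beside a spread of SOD2 itself of 0.524. For SOD1 they were RPS14, TBCB and ATP5MC3, at 0.0528, 0.0558 and 0.0621, and for CYBA H2AFZ, LAMTOR5 and FIS1, at 0.0782, 0.0844 and 0.0883. CAT was closest to TUBB, GSN and SHMT1, at 0.0784, 0.0800 and 0.0900. NOX4, with a spread of 0.831, was closest to MLPH, TCIM and ALDH2, at 0.283, 0.289 and 0.312. These are descriptions over libraries that share 4 groups, and 1 library of untreated ATG7 KO cells adds to the likeness of genes that were high in it.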

How the data were processed

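RNA libraries of HLE-B3 cells were grouped by genotype and treatment from their labels, with 3 biological replicates in each of 4 groups. The deposited raw counts are reads per gene, and the submitters' processing notes name HISAT2 2.0.5 and featureCounts 1.5.0-p3 on GRCh38. The deposited FPKM values matched those from the same counts, gene length and library total up to a constant factor for each library. This factor ran from 0.949 in untreated WT replicate 2 to 1.017 in treated ATG7 KO replicate 2. It was above 1 in all treated libraries and below 1 in all untreated WT libraries. The strand setting and the handling of multimapped reads are not given in the sources used here, so overlapping genes, paralogs and pseudogenes can share reads. Library totals were 15602183 to 17659496 reads, and genes with few reads are limited by their counts too.

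Counts were tested with edgeR 4.0.16 in R 4.3.3 (filterByExpr with a minimum count of 10, TMM scaling, robust quasi-likelihood F test), on the 6 libraries of each comparison of groups and on all 12 for the difference of responses. A member was called at a Benjamini-Hochberg adjusted p under 0.01 over all genes tested. The SE of a log2 fold change was derived from it and its F statistic. SOD3 and the second SOD2 record did not pass the filter, and without a filter neither was called (lowest unadjusted p of 0.125). Alternatives were DESeq2 1.42.0, RLE and upper quartile scaling, no or a stricter filter, a shared fit, a replicate block, a gene length offset (lowess, span 0.3), limma 3.58.1 on log2 of FPKM plus 1 or 0.1, and each library left out. The scripts were tested on simulated counts. The members and the lists were chosen with earlier results of these data known. The text names, besides the members, at most the 2 highest and 2 lowest called genes of each list and comparison, and the 3 nearest patterns of members called at least once (mean FPKM above 1, prior count 2). STEAP3 in WT cells is named in addition. Some genes of the lists are not reported here. Promoter sequences are from RefSeq on GRCh38.p14.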

Additional observations from a re-analysis of the deposited data

Results flagged for a closer look

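The response to H2O2 differed between the genotypes for 2 members of 6 by the test of the difference itself, the interaction in edgeR's quasi-likelihood fit of all 12 libraries. Of all 16856 genes tested, 14% passed the same test. For SOD2 the ATG7 KO response minus the WT response was −0.99 on the log2 scale (adjusted p = 0.00127), with a response of 0.30 in WT cells and −0.70 in ATG7 KO cells. For CYBA it was −1.13 (adjusted p = 0.00731), with responses of 0.33 and −0.80. The CYBA call was lost without any single WT library or any single treated ATG7 KO library, with adjusted p between 0.0167 and 0.0227. It was also lost with limma (adjusted p = 0.0134). All treated libraries were above all untreated libraries in WT cells and below them in ATG7 KO cells, for both genes. Without untreated ATG7 KO replicate 1, in which short genes were high, the differences were −0.82 and −0.77.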

How the results depend on the processing

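The count of members called was unchanged or within 1.5 times in each comparison under upper quartile scaling and the stricter filter. In WT cells the 4 calls became 1 when all 12 libraries shared an estimate of the spread, and were 4 in that fit without untreated ATG7 KO replicate 1 and without each single library. In ATG7 KO cells the 2 calls became 1 with the replicate block, with the gene length correction and with limma on log2 of FPKM plus 1 or plus 0.1, were 3 with DESeq2, all 12 libraries or an adjusted p under 0.05, with CYBA lower as well, and were 1 to 3 with a library left out. Between untreated genotypes, where NOX4 lay next to the threshold, the 1 call became 2 at an adjusted p under 0.05, with DESeq2, RLE scaling, no filter, all 12 libraries or the gene length correction, and 0 to 4 with a library left out, 4 also in the shared fit without untreated ATG7 KO replicate 1. Between treated genotypes the 5 calls became 2 with all 12 libraries and 3 with the gene length correction, and stayed at 5 with each library left out. In the difference of responses the 2 calls became 4 at an adjusted p under 0.05 and 1 with limma at either pseudocount, and were 1 to 3 with a library left out. Apart from the shared fit and the left-out libraries, the cause was not tested.

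Values that changed sign were those of members far from the threshold. With 1 library left out, CCS between untreated genotypes ranged from −0.15 (without untreated ATG7 KO replicate 1, and −0.16 without it in the shared fit) to 0.33, and CAT from −0.078 to 0.033 (without untreated WT replicate 3). The difference of responses of NOX4 ranged from −0.31 to 0.24, and it was above 0 without untreated WT replicate 3 (0.0012), treated WT replicate 3 (0.24), untreated ATG7 KO replicate 1 (0.17) or treated ATG7 KO replicate 2 (0.083).

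The deviations of same-numbered libraries from their group means had correlations of −0.043 to 0.098 over genes. The labels do not say whether equal numbers pair the samples. These correlations cannot settle it, because the noise of single genes can hide a shared deviation. With the replicate block the members called were 4 in WT cells, 1 in ATG7 KO cells, 1 between untreated and 5 between treated genotypes, and 2 in the difference of responses.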
